A study of Mus musculus with 60 samples.

Results

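Hearts of dnOGAh mice taken at lights off (ZT12) were compared with dnOGAh hearts taken at lights on (ZT0). The comparison used the 5 libraries whose labels give dnOGAh and Zeitgeber Time 12 and the 5 whose labels give dnOGAh and Zeitgeber Time 24, read here as ZT0, which makes 10 of the 60 libraries of the series. dnOGAh mice carry TRE-EGFP-dnOGA, a doxycycline-responsive transgene for a splice variant of rat OGA, together with αMHC-rtTA, whose α-myosin heavy chain promoter limits induction to cardiomyocytes. CON mice carry αMHC-rtTA alone, and both genotypes were male. All mice, CON included, were injected with 100 μg doxycycline at 10 weeks of age and moved to a diet with 1 g of doxycycline per kg, and hearts were collected 2 weeks later, at 12 weeks of age. RNA came from both ventricles with their mixed cell types, 1 heart per library, so that fewer cells of a type and less RNA per cell cannot be told apart.

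The mammalian clock is a transcriptional feedback loop. BMAL1 (gene Arntl) pairs with CLOCK or NPAS2 and activates genes with E-boxes, among them the Per, Cry and Rev-erb genes, whose proteins then repress the pair or the Arntl gene itself. The PAR bZIP factors DBP, TEF and HLF act at D-boxes and carry the rhythm to output genes, and in the heart the loop in cardiomyocytes sets the time of day of many metabolic transcripts.

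The labels were first set against Oga (listed as Mgea5), the gene of O-GlcNAcase, to which reads of the rat transgene can also be assigned. At ZT0 replicates 1 to 5 had 624, 406, 562, 467 and 182 CPM (counts per 1000000, scaled by TMM), and at ZT12 they had 287, 837, 70.1, 573 and 728 CPM. The library labelled ZT12 replicate 3 lay inside the range of the 30 CON hearts (46.7 to 72.2 CPM), whereas the other 29 dnOGAh hearts had 182 to 837 CPM. The calls are therefore given with and without the library labelled ZT12 replicate 3. On the first principal component of the 10 libraries, which held 48.6% of the variance, it was at 145 and the other 9 were between -50.5 and -2.68. The median SD of log2 CPM over genes was 0.258 among the ZT0 hearts and 0.441 among the ZT12 hearts, and it was 0.256 at ZT12 without that library. Gene counts per library ran from 14540266 to 48292878, and 13.9% to 19.9% of them were mitochondrial. The difference between the times did not pass for either measure in an exact two-sided permutation test (p = 0.643 and 0.730, n = 5 and 5).

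Clock transcripts were 10 of the 21 that differed between ZT0 and ZT12 in dnOGAh hearts. The activators Arntl and Npas2 fell, while Dbp, Tef, Per2, Per3, Cry2, Nr1d2 and Usp2 rose, and Hlf rose only with the library labelled ZT12 replicate 3 included. The largest decrease among the called genes with a symbol was that of Arntl (6.31-fold lower at ZT12) and the largest increase that of Dbp (8.31-fold higher). Of 18119 genes tested, 21 passed an adjusted p of 0.05 in edgeR's quasi-likelihood test (0.116% of those tested), 11 of them higher at ZT12 (0.0607%) and 10 lower (0.0552%). Without the library labelled ZT12 replicate 3, 14 of 18638 passed (0.0751%), 9 higher (0.0483%) and 5 lower (0.0268%). There were 13 genes in both sets, 8 passed only with the library and 1, Wee1, only without it. At an unadjusted p under 0.05 there were 868 of 18119 genes with it and 225 of 18638 without it. Both are fewer than chance alone gives at that threshold, the second by far. The p values thus ran high, and a gene that did not pass may still differ. The count was 33 without ZT12 replicate 1, and 12 of the 21 genes passed whichever single library was left out. Fitting the 10 compared libraries alone left 5, namely Arntl, Npas2, Dbp, Per2 and Per3. Of the 21, only these passed in each of the 23 settings that started from all libraries.

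Of the 26 genes in 5 clock lists, all of which were tested, 10 passed (38.5%), 8 higher and 2 lower, and 9 did so without the library labelled ZT12 replicate 3. Over all genes tested the median log2 fold change was 0.01 with all libraries and 0.0030 without that one. The clock lists were chosen for what is known of the clock and with earlier results of these data known.

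Promoters of 3 clock genes that passed are shown because each holds a clock motif in the window from 250 bases before to 50 bases after an annotated start (RefSeq, build GRCm38.p6). Capitals mark a D-box in Per3 (chr4:151044616-151044915, minus strand), a RORE in Arntl (chr7:113207261-113207560, plus strand) and an E-box in Tef (chr15:81811164-81811463, plus strand).
Per3: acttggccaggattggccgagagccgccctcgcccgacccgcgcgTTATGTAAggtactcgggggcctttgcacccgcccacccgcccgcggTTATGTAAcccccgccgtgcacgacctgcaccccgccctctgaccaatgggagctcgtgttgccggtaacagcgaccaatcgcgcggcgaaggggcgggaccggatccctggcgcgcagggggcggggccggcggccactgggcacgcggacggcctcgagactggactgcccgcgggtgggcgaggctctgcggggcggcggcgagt
Arntl: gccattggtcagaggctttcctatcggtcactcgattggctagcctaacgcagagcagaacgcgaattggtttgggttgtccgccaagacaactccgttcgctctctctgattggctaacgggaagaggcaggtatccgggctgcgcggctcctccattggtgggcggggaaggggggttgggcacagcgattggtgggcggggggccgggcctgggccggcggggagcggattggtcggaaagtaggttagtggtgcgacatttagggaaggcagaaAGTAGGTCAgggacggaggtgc
Tef: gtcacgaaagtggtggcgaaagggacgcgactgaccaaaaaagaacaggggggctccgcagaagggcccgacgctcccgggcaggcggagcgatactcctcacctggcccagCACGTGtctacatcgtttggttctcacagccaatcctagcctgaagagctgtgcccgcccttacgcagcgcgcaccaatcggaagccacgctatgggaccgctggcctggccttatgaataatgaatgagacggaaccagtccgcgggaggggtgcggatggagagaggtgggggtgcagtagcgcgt

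Both strands were searched for the E-box CACGTG, the D-boxes TTATGTAA and TTACGTAA and the ROREs ANTAGGTCA and ANTGGGTCA, whose matches did not overlap in the windows shown. Per3 had a D-box 205 and another 158 bases before the start, Tef an E-box 138 bases before this start and one 127 bases before another of its starts, and Arntl a RORE 28 bases after the start. Over 32851 windows, 7.15% held the E-box, 1.06% a D-box and 1.45% a RORE, and of the 27025 genes they belong to, 8.09% had a window with the E-box, 1.23% with a D-box and 1.63% with a RORE. RefSeq windows were matched for 10 of the 12 genes called higher with or without the library labelled ZT12 replicate 3, and 2 of the 10 held an E-box, 1 a D-box and 0 a RORE. Among the 10 called lower, 4 were matched, and 1 held an E-box, 0 a D-box and 1 a RORE. These are matches of letters in a short window only.

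**Figure D1:**
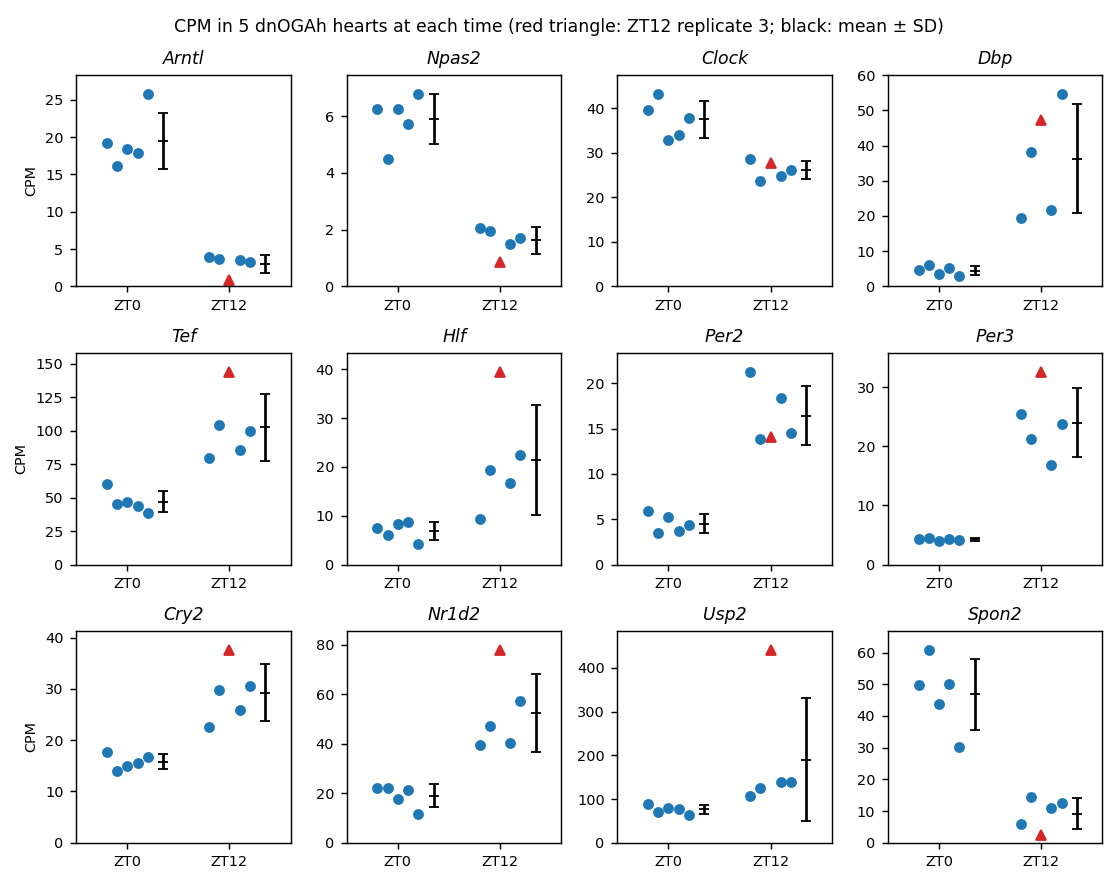
CPM (linear axis from 0) of 12 genes in each dnOGAh heart at ZT0 and ZT12. Points are hearts, the red triangle is the library labelled ZT12 replicate 3 and black bars are the mean ± SD of all 5 hearts. Arntl lies between 16.1 and 25.8 CPM at ZT0 and between 0.855 and 3.87 at ZT12, and Usp2 at ZT12 has 441 CPM in the triangle against at most 138 in the other 4 hearts.

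Of the activators, 2 of 3 fell. Arntl, which encodes BMAL1, had 19.1, 16.1, 18.4, 17.8 and 25.8 CPM in ZT0 replicates 1 to 5 and 3.87, 3.61, 0.855, 3.47 and 3.29 CPM in ZT12 replicates 1 to 5. The lowest value was that of the library labelled ZT12 replicate 3, and the groups did not overlap with or without it. The log2 fold change was -2.66 (SE 0.27, adjusted p = 1.25e-09, edgeR) and -2.45 without that library (SE 0.25, adjusted p = 4.08e-09). Npas2, which encodes the alternative partner of BMAL1, had 6.25, 4.48, 6.25, 5.72 and 6.79 CPM at ZT0 and 2.07, 1.96, 0.855, 1.499 and 1.72 CPM at ZT12. Again every ZT12 heart was below every ZT0 heart (log2 fold change -1.85, SE 0.29, adjusted p = 7.01e-05, and -1.71 without the doubted library, adjusted p = 9.65e-04). Clock, the usual partner, ran from 32.8 to 43.3 CPM at ZT0 and from 23.6 to 28.6 CPM at ZT12. Its groups did not overlap either, but its log2 fold change of -0.52 did not pass (adjusted p = 0.23, and 0.45 without the library).

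Of the PAR bZIP output factors, Dbp and Tef rose with and without the doubted library. Dbp had 4.76, 6.02, 3.38, 5.17 and 2.84 CPM at ZT0 and 19.5, 38.2, 47.2, 21.7 and 54.7 CPM at ZT12. The ZT12 hearts fell into a lower pair, replicates 1 and 4, and 3 higher ones, and all were above the ZT0 hearts. Its log2 fold change was 3.06 (SE 0.32, adjusted p = 4.69e-09) and 2.95 without the library labelled ZT12 replicate 3 (adjusted p = 3.44e-08). Tef had 60.6, 45.6, 46.7, 43.7 and 38.9 CPM at ZT0 and 79.8, 104, 144, 85.3 and 99.9 CPM at ZT12. The groups did not overlap, and the doubted library was the highest of the 10 (log2 fold change 1.12, adjusted p = 5.44e-06, and 0.97 without it, adjusted p = 1.70e-04). Hlf had 7.42, 6.09, 8.35, 8.66 and 4.12 CPM at ZT0 and 9.26, 19.3, 39.5, 16.7 and 22.4 CPM at ZT12. ZT12 replicate 1 was close to the ZT0 hearts and the library labelled replicate 3 was far above the rest. Hlf passed with all libraries (log2 fold change 1.62, adjusted p = 0.014) and not without that library (1.29, adjusted p = 0.24), nor without ZT0 replicate 2 (adjusted p = 0.065) or ZT0 replicate 5 (adjusted p = 0.092). Nfil3, a repressor at D-boxes, had a log2 fold change of -0.66 that did not pass (adjusted p = 0.40, and 1 without the library), with overlapping groups.

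Of the Period and Cryptochrome repressors, 3 of 5 rose. Per3 had 4.39, 4.48, 3.92, 4.35 and 4.08 CPM at ZT0, close to each other, and 25.4, 21.3, 32.6, 16.8 and 23.8 CPM at ZT12. Every ZT12 heart was above every ZT0 heart (log2 fold change 2.50, SE 0.29, adjusted p = 5.06e-08, and 2.37 without the library labelled replicate 3, adjusted p = 4.57e-07). Per2 had 5.88, 3.50, 5.21, 3.68 and 4.31 CPM at ZT0 and 21.2, 13.9, 14.0, 18.4 and 14.6 CPM at ZT12. The doubted library was in the middle of its group here (log2 fold change 1.86, adjusted p = 1.44e-04, and 1.91 without it, adjusted p = 2.85e-04). Cry2 had 17.7, 14.1, 15.0, 15.5 and 16.8 CPM at ZT0 and 22.6, 29.9, 37.6, 25.8 and 30.5 CPM at ZT12. Its groups did not overlap (log2 fold change 0.89, adjusted p = 0.0022, and 0.78 without the library, adjusted p = 0.027). The latter call was lost when ZT0 replicate 2, 3, 4 or 5 or ZT12 replicate 2, 4 or 5 was also left out (adjusted p = 0.050 to 0.27). Per1 had 20.2 to 40.0 CPM at ZT0 and 45.5 to 91.3 CPM at ZT12, without overlap, but its log2 fold change of 1.14 did not pass (adjusted p = 0.26, and 0.24 without the library). Cry1 had a log2 fold change of -0.15, and -0.23 without the library (adjusted p = 1 in both).

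Among the nuclear receptors of the Arntl loop described here, only Nr1d2 passed. Nr1d2, the gene of the repressor REV-ERBβ, had 22.3, 22.3, 17.6, 21.5 and 11.5 CPM at ZT0 and 39.5, 47.1, 77.8, 40.2 and 57.3 CPM at ZT12. All ZT12 hearts were higher (log2 fold change 1.46, adjusted p = 5.25e-05, and 1.28 without the library labelled replicate 3, adjusted p = 8.94e-04). Nr1d1, the gene of REV-ERBα, had 25.2, 20.8, 25.7, 25.3 and 15.3 CPM at ZT0 and 28.4, 40.6, 20.1, 23.4 and 51.1 CPM at ZT12. Its groups overlapped and it did not pass (log2 fold change 0.54, adjusted p = 0.97, and 0.67 without the library, adjusted p = 1). Rora, a gene of an activator at ROREs, did not pass either, and had its highest value among the 10 hearts in the doubted library. Rora had 24.9 to 31.9 CPM at ZT0, 28.7 to 30.2 CPM in the other 4 ZT12 hearts and 56.9 CPM in that one (log2 fold change 0.32 with and 0.08 without it, adjusted p = 0.97 and 1).

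Of 10 further clock repressors and regulators, only Usp2 passed. Usp2, the gene of a deubiquitinase, had 89.8, 70.8, 79.7, 77.6 and 62.8 CPM at ZT0 and 106, 126, 441, 138 and 138 CPM at ZT12. The groups did not overlap, and the change shrank from 1.32 (adjusted p = 2.91e-04) to 0.74 on the log2 scale without the library labelled replicate 3 (adjusted p = 0.027). The latter call was lost when any of the same 7 libraries as for Cry2 was also left out (adjusted p = 0.071 to 0.22). Ciart, the gene of the repressor CHRONO, had 1.68 to 3.99 CPM at ZT0 and 4.93 to 9.81 CPM at ZT12, and did not pass (log2 fold change 1.28, adjusted p = 0.072, and 0.33 without the library). Bhlhe40 and Bhlhe41, which encode the DEC repressors, had log2 fold changes of -0.12 and 0.10 with overlapping groups (adjusted p = 1), or 0.08 and 0.26 without the library, and their lowest ZT12 values, 19.9 and 15.3 CPM, were both in the doubted library. Cipc and Csnk1e had log2 fold changes of 0.11 and 0.21, and 0.16 and 0.04 without the library (adjusted p = 1 for each). The other 4 members of the list had values from -0.07 to 0.08, and from -0.04 to 0.34 without it.

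Outside the clock lists 11 genes passed with all libraries. Spon2, which encodes a secreted matrix protein, had 49.6, 60.8, 43.7, 50.2 and 30.2 CPM at ZT0 and 5.81, 14.5, 2.32, 10.9 and 12.5 CPM at ZT12. The groups were far apart and the doubted library was the lowest (log2 fold change -2.34, adjusted p = 6.61e-05, and -2.11 without it, adjusted p = 5.68e-04). Rhoj, the gene of a small GTPase of endothelial cells, had 41.1, 45.4, 45.3, 42.8 and 49.1 CPM at ZT0 and 31.9, 27.9, 20.2, 29.2 and 26.3 CPM at ZT12. All ZT12 hearts lay below the ZT0 hearts (log2 fold change -0.72, adjusted p = 3.96e-04, and -0.64 without the library, adjusted p = 0.0078). The latter call was lost when ZT12 replicate 2 (adjusted p = 0.062) or ZT12 replicate 5 (adjusted p = 0.11) was also left out. Foxs1, the gene of a forkhead factor, had 8.35 to 11.6 CPM at ZT0 and fell to between 3.66 and 6.45 CPM at ZT12 (log2 fold change -1.14, adjusted p = 0.0077, and -1.22 without the library, adjusted p = 0.0098). Its call was lost without ZT12 replicate 2 or ZT12 replicate 5 (adjusted p = 0.056 in each case), and, with the doubted library already left out, also without ZT12 replicate 1, 2 or 5 (adjusted p = 0.067 to 0.15).

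Ephx1, which encodes microsomal epoxide hydrolase, had 31.4, 37.0, 29.0, 30.6 and 38.1 CPM at ZT0 and 53.0, 52.6, 56.9, 49.5 and 60.3 CPM at ZT12. All ZT12 hearts lay above the ZT0 hearts (log2 fold change 0.71, adjusted p = 0.0054, and 0.70 without the doubted library, adjusted p = 0.021). The latter call was lost when ZT0 replicate 1, 3 or 4 or ZT12 replicate 1, 2 or 5 was also left out (adjusted p = 0.062 to 0.22). It was the 1 gene of 18 tested in the list of xenobiotic and aldehyde enzymes that passed. Wee1, the gene of a kinase that delays entry into mitosis, had 12.5, 10.6, 12.4, 10.8 and 15.0 CPM at ZT0 and 31.4, 18.7, 9.96, 17.7 and 19.9 CPM at ZT12. The library labelled replicate 3 was the lowest of the 10, and the other 4 ZT12 hearts were above the ZT0 hearts. Wee1 passed only without it (log2 fold change 0.84, SE 0.17, adjusted p = 0.020, against 0.68 and 0.22 with it), and no longer when ZT12 replicate 1 was also left out (0.62, adjusted p = 0.67) or when ZT0 replicate 1, 2, 3 or 4 was (0.79 to 0.84, adjusted p = 0.051 to 0.097).

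The remaining 7 genes passed only with the library labelled ZT12 replicate 3. Rhobtb1, a gene that the study followed, had 27.5 to 31.4 CPM at ZT0, 34.5 to 51.7 CPM in the other 4 ZT12 hearts and 114 CPM in that library (log2 fold change 0.99, adjusted p = 0.026, and 0.61 without it, adjusted p = 1). Cys1, the gene of cystin, had 3.32 to 5.79 CPM at ZT0 and 8.20 to 13.7 CPM at ZT12, with a log2 fold change of 1.23 with and 1.11 without the library (adjusted p = 0.019 and 0.14). Plat, the gene of tissue plasminogen activator, had 29.9 to 36.6 CPM at ZT0 and 18.8 to 21.7 CPM in 4 ZT12 hearts, against 8.55 CPM in the doubted one. Its log2 fold change was -0.95 with and -0.78 without it (adjusted p = 0.026 and 0.24). Adam19 and Adamts4, genes of metalloproteinases, had log2 fold changes of -0.89 and -2.09 with it (adjusted p = 0.026 and 0.033) and -0.68 and -1.88 without it (adjusted p = 0.19 and 0.21). Leaving out single other libraries ended these calls too, for Rhobtb1 any ZT0 heart, for Cys1 ZT0 replicate 1, 2, 3 or 4, and for Plat ZT0 replicate 1, 3, 4 or 5 or ZT12 replicate 5. For Adam19 it was ZT0 replicate 1, 3 or 5 or ZT12 replicate 2, 4 or 5, and for Adamts4 ZT0 replicate 2, 3, 4 or 5 or ZT12 replicate 1, 2 or 5. The adjusted p then ran from 0.050 to 0.19 over these 5 genes. Adam19 was the 1 gene with a symbol among the 21 whose groups overlapped, with 32.1 CPM in ZT12 replicate 1 against 28.1 CPM in ZT0 replicate 2. The 2 called genes without a symbol rested on ZT0 replicate 2. ENSMUSG00000119895 had 52.9 CPM there and at most 0.524 CPM in the other 9 hearts, and ENSMUSG00000119132 had 28.3 CPM there, 9.67 CPM in ZT0 replicate 1 and at most 0.344 CPM elsewhere. These 2 identifiers were singled out after their values were seen, and neither passed without ZT0 replicate 2 (adjusted p = 0.999 and 0.573), nor without any 1 of the ZT12 hearts. ENSMUSG00000119132 did not pass without ZT0 replicate 1 either (adjusted p = 0.087). ZT0 replicate 2 was also unusual in its makeup. Another identifier, ENSMUSG00000119584, had 182040 CPM in it, against 1624 to 9176 CPM in the other 9 hearts. Whether that had a part in these calls was not tested.

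Across the whole table, groups that did not overlap were about as common as chance alone gives. Splitting the hearts 5 against 5 has 252 arrangements, and 4 against 5 has 126. In each direction a single arrangement leaves the groups apart. With all libraries 78 genes lay wholly higher at ZT12 (0.43%) and 81 wholly lower (0.447%), and without the library labelled replicate 3 there were 136 (0.751%) and 122 (0.673%). Of the 26 clock genes, 13 did not overlap.

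The same contrast in CON hearts gave 69 genes (0.381%), 36 higher (0.199%) and 33 lower (0.182%). Of the 21 dnOGAh genes 15 were among them, which is 71.4% of the dnOGAh set and 21.7% of the CON set, and 67 of the 69 CON genes had the same sign in dnOGAh hearts. For the difference between genotypes 0 of 18119 genes passed (0% in either direction), with 2 in DESeq2 and 11 in limma voom with sample weights. At an unadjusted p under 0.05 there were 489, far fewer than chance alone gives at that threshold. A gene that did not pass may therefore still differ between genotypes. Without the library labelled ZT12 replicate 3, 1 gene passed (0.00537%), and it was Arntl. Its ZT12 level was 1.09 ± 0.576 CPM in CON hearts (SD, n = 5, highest 2.08), and in the 4 other dnOGAh hearts it was 3.56 ± 0.244 CPM (SD, n = 4). The doubted library, at 0.855 CPM, lay within the CON ZT12 range (0.654 to 2.08 CPM), and the 4 other dnOGAh hearts lay above it. At ZT0 Arntl had 23.8 ± 1.54 CPM in CON and 19.5 ± 3.71 CPM in dnOGAh hearts (SD, n = 5 each). The contrast was -4.42 in CON and -2.45 in dnOGAh hearts without that library, and they differed by 1.97 on the log2 scale (SE 0.36, adjusted p = 0.017, edgeR). With all libraries the difference was 1.76 (SE 0.39, adjusted p = 0.31), and without the library the call was lost when ZT0 replicate 2 (adjusted p = 0.073) or ZT12 replicate 1 (adjusted p = 0.063) was also left out.

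**Figure D2:**
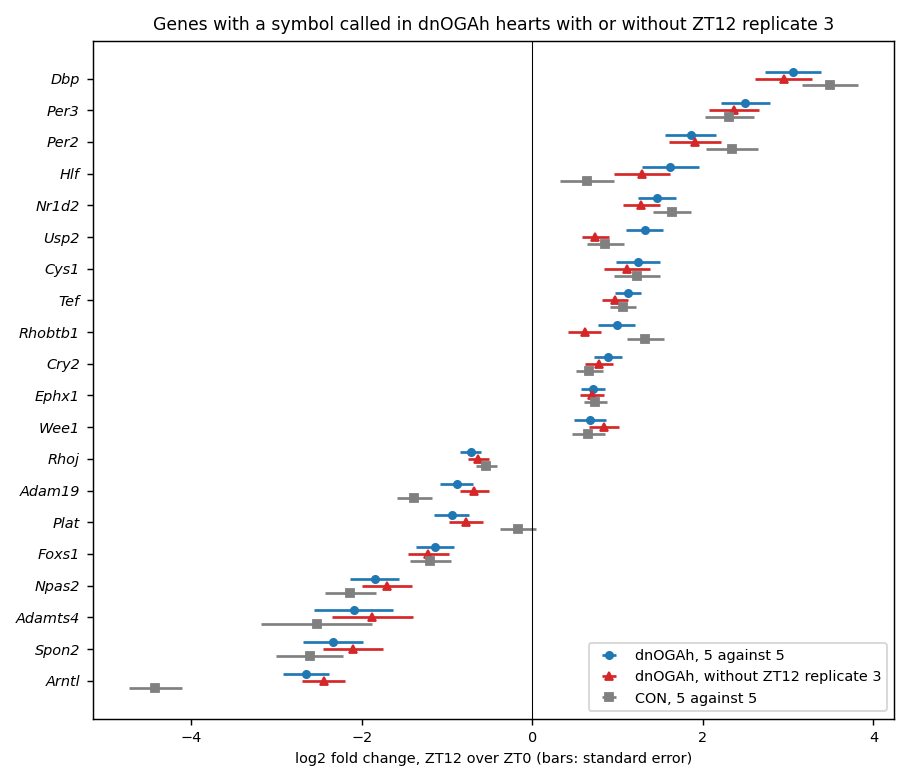
Log2 fold change of ZT12 over ZT0 (bars, standard error) for the genes with a symbol called in dnOGAh hearts with or without the library labelled ZT12 replicate 3. Blue circles use all dnOGAh hearts, red triangles leave that library out and grey squares are CON hearts. Arntl is at -2.66, -2.45 and -4.42, and Usp2 moves from 1.32 to 0.74 when the library is left out.

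Values in both genotypes stand side by side for the other clock genes, and none of these differences passed. Dbp had a log2 fold change of 3.06 in dnOGAh and 3.49 in CON hearts, Per3 2.50 and 2.31, Per2 1.86 and 2.34, and Nr1d2 1.46 and 1.63. Tef was at 1.12 and 1.06, Cry2 at 0.89 and 0.67, and Npas2 at -1.85 and -2.14. Clock genes that passed in dnOGAh only were Hlf, at 1.62 in dnOGAh (1.29 without the doubted library) and 0.64 in CON hearts, and Usp2, at 1.32 (0.74 without it) and 0.85. Genes that passed in CON only were Clock (-0.93), Per1 (1.70), Nfil3 (-1.38), Ciart (1.63), Bhlhe41 (0.88) and Cipc (0.41), and their difference between genotypes did not pass (adjusted p = 1 for each). Among non-clock genes that passed in CON, Mthfd1l, which encodes a mitochondrial folate enzyme, had 3.08 in CON and 0.71 in dnOGAh hearts (0.88 without the doubted library), and the tetraspanin gene Tspan4 had 1.47 and 0.53 (0.62). Tfrc, the gene of the transferrin receptor, had -1.61 and -0.31 (-0.21), and Tnfaip2 had -0.79 and -0.22 (-0.11). The difference did not pass for any of these 4 (adjusted p = 0.48 for Mthfd1l and 1 for the others, and without the library 0.98 for Mthfd1l, 0.32 for Tnfaip2 and 1 for Tspan4 and Tfrc). Tspan4, Tfrc and Tnfaip2 were named for a small p of that difference, which favours unlike values in the genotypes. Further genes that met the same rule and passed in CON are not given by value. Some of those had the opposite sign in dnOGAh hearts with all libraries. Cys1, Ephx1 and Foxs1, which passed in both, were at 1.23, 0.71 and -1.14 in dnOGAh and 1.23, 0.74 and -1.20 in CON hearts.

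ZT0 and ZT12 were the extremes of the 6 sampled times for most of the genes that passed in dnOGAh hearts. These genes were called on the difference between those same times, which favours this outcome, so it is no separate evidence of a rhythm. Of the 11 higher genes, 10 had their highest dnOGAh mean at ZT12 and 9 their lowest at ZT0. Of the 10 lower ones, 9 had the highest mean at ZT0 and 9 the lowest at ZT12. In CON hearts Dbp, Nr1d2, Hlf and Cry2 had their highest mean at ZT8, Cry2 with 44.5 CPM there and 44.0 CPM at ZT12. The library labelled ZT12 replicate 3 was the ZT12 heart farthest in the called direction for 15 of the 21 genes. With the ZT12 mean taken without it, 8 of the 11 higher genes had their highest mean at ZT12, and 6 of the 10 lower genes their lowest.

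**Figure D3:**
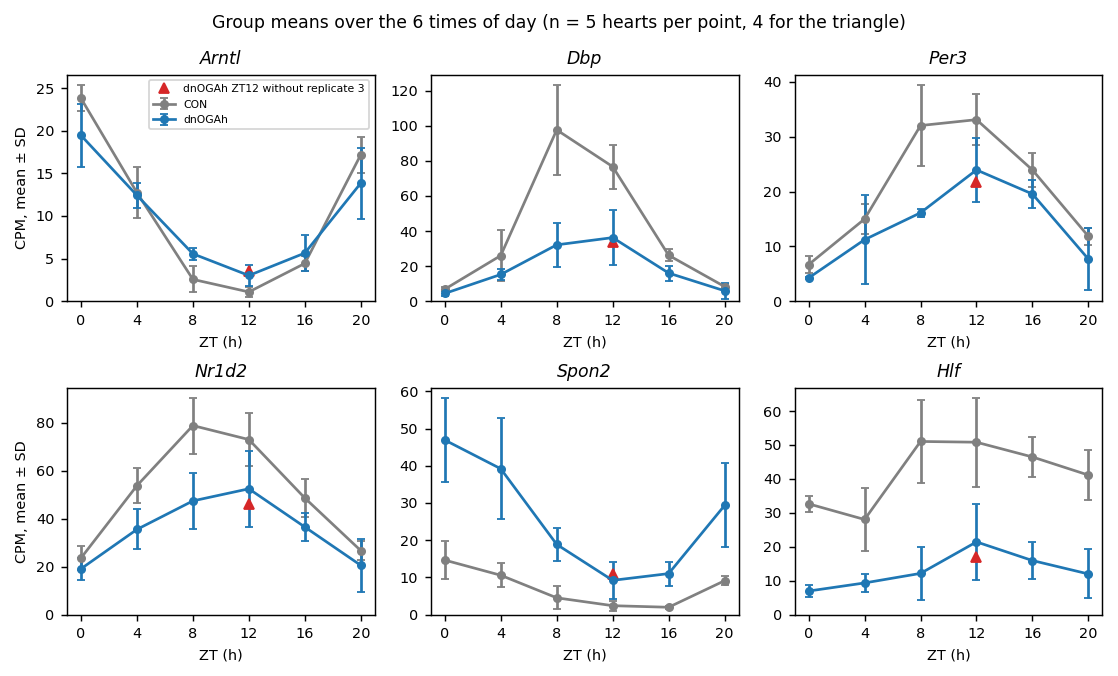
CPM (mean ± SD, linear axis from 0) of 6 genes in CON (grey) and dnOGAh (blue) hearts over the 6 times of day, in hours of ZT. Red triangles are the dnOGAh ZT12 mean without the library labelled replicate 3. Arntl in dnOGAh hearts is at 19.5 CPM at ZT0 and 3.02 at ZT12, and Dbp at 4.43 and 36.2.

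Of the 44 gene lists, 36 had no member that passed, and 37 had none without the library labelled ZT12 replicate 3. The 44 include the 5 clock lists, each of which had a member that passed in both fits. Beyond the clock, members passed only in the lists of the study's metabolic and signaling genes, xenobiotic and aldehyde enzymes, and other matrix genes. Without that library it was only the xenobiotic and aldehyde enzymes and the cell cycle list. With that library the lists of cardiomyocyte and mitochondrial genes leaned up and those of matrix and fibroblast genes leaned down, and without it the medians of both were nearer to 0. Of 35 genes of the TCA cycle and oxidative phosphorylation, 35 had positive values with all libraries (median 0.30), and 19 had without it (median 0.0014). In either case 0 passed. Over all genes tested the share that passed was 0.116%, or 0.0751% without that library. At such shares a list of this length would seldom hold a gene that passed. The 10 cardiomyocyte markers had a median of 0.47 with and -0.02 without it, and 35 genes of fatty acid uptake and oxidation 0.27 and -0.02. The 25 collagens had a median of -0.35 with and -0.11 without it, and the 12 activated fibroblast genes -0.34 and -0.18. A list median was over 0.2 in size for 22 lists with all libraries and for 12 without the doubted one.

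Single members show the same. Cycs, the gene of cytochrome c, had 237 to 293 CPM at ZT0, 200 to 273 CPM in 4 ZT12 hearts and 529 CPM in the library labelled replicate 3. Its log2 fold change was 0.20 with and -0.08 without it (adjusted p = 1 in both). Tcap, the gene of the Z-disc protein telethonin, had 632, 673, 480, 637 and 381 CPM at ZT0 and 369, 977, 4009, 893 and 1087 CPM at ZT12. ZT12 replicate 1 was the lowest and the library labelled replicate 3 the highest of the 10 hearts (log2 fold change 1.39, adjusted p = 0.093, and 0.57 without it, adjusted p = 1). Col5a3, the gene of a collagen V chain, had 58.4 to 81.8 CPM at ZT0, 47.1 to 56.2 CPM in 4 ZT12 hearts and 8.37 CPM in the doubted one. Without the latter its log2 fold change was -0.44 (adjusted p = 1), and with it -0.70 (adjusted p = 0.71).

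Summed levels place that library apart. Its summed CPM lay outside the range of the other 9 dnOGAh hearts of the comparison for 35 of the 44 lists, and for 29 of those it lay within the range of the 30 CON hearts. The collagens summed to 1020.2 CPM in it, against 6559 to 11840 in the other 9 and 950 to 1875 in CON hearts. The 10 cardiomyocyte markers summed to 111670 CPM in it, against 24495 to 43116 in the other 9 and 39544 to 86164 in CON hearts, so that it lay above both. The 13 macrophage and monocyte genes summed to 504 CPM, against 1265 to 2481 in the other 9 and 215 to 369 in CON hearts, so that it lay between them. The 2 hearts with the lowest Oga among the other 9, ZT0 replicate 5 and ZT12 replicate 1, also stood apart on the second principal component (43.0 and 45.9, against -32.2 to 2.13 in the remaining 7 hearts). The 7 tested neutrophil genes had a median log2 fold change of 0.14 with and 0.43 without the library labelled ZT12 replicate 3. The 11 lymphocyte genes had -0.42 and -0.25, and the 14 endothelial genes 0.04 and -0.03. Of the members of these 3 lists 0 passed, where 0.116% of all genes tested did. Whether the low Oga or the cell makeup of these hearts had a part in any result was not tested.

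**Figure D4:**
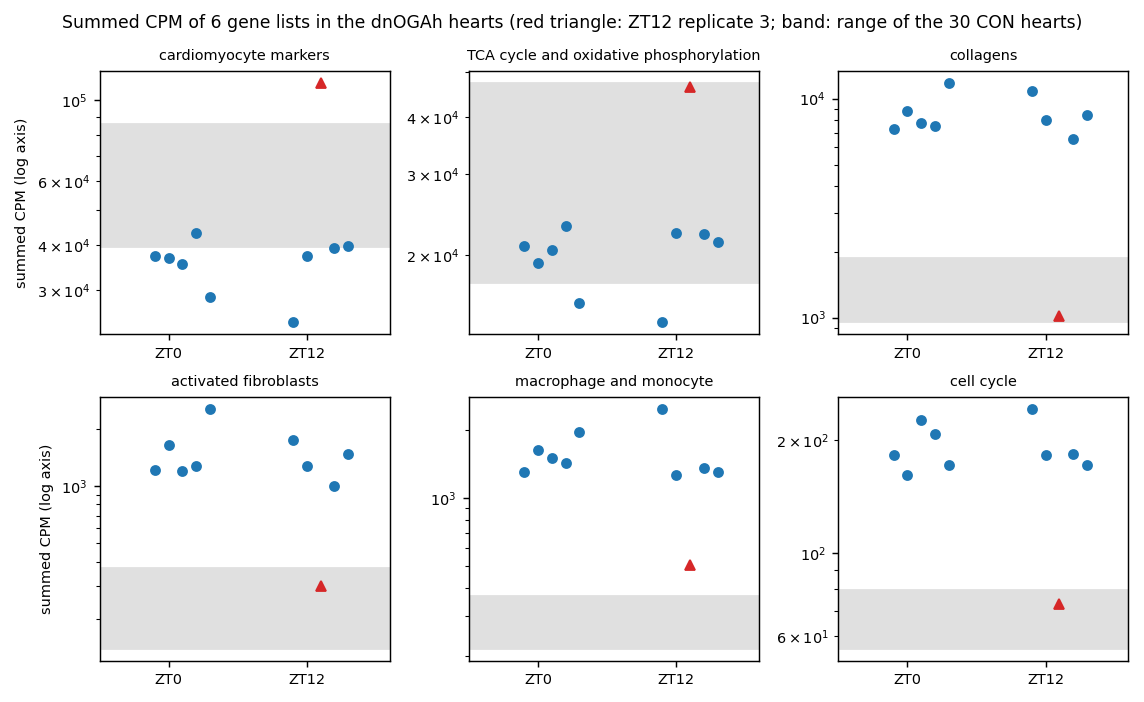
Summed CPM (log axis) of 6 gene lists in each dnOGAh heart at ZT0 and ZT12. Points are hearts, the red triangle is the library labelled ZT12 replicate 3 and the grey band is the range of the 30 CON hearts. For collagens the triangle is at 1020.2, inside the band, and the other 9 hearts are at 6559 or more.

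Hormone, feeding, temperature and stress lists had 0 members that passed, with or without the doubted library. Over all genes tested the share was 0.116%, or 0.0751% without it. The 17 glucocorticoid-responsive genes had a median of 0.25, and 0.28 without the library labelled ZT12 replicate 3, on the log2 scale. Of these Tsc22d3, which encodes GILZ, had 44.6, 45.5, 46.1, 52.0 and 77.4 CPM at ZT0 and 97.6, 63.7, 120, 85.4 and 87.0 CPM at ZT12. Its groups overlapped through ZT0 replicate 5, and its log2 fold change of 0.77 did not pass (adjusted p = 0.18, and 1 without the library). Klf15, a glucocorticoid-induced regulator of cardiac metabolism, had 0.89 (adjusted p = 0.48, and 1 without it). The 18 feeding and insulin genes had a median of 0.16 and 0.06, with Foxo3 at 0.54 (adjusted p = 0.18) and Pik3ip1 at 0.62 (adjusted p = 0.58), or 0.33 and 0.51 without the library. The 20 heat shock and temperature genes had a median of 0.18 and -0.0084, with Cirbp, a cold-inducible RNA-binding protein gene, at 0.50 (adjusted p = 0.68) and Rbm3 at 0.18 (adjusted p = 1), or 0.37 and 0.34 without it. The 24 unfolded protein and integrated stress genes had a median of -0.18 in both cases, and Herpud1, an endoplasmic reticulum stress gene, was at 0.63 (adjusted p = 0.22), or 0.45 without it.

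Of the metabolic and signaling genes that the study followed, Dgat2, an enzyme gene of triglyceride synthesis, had 82.4 to 168 CPM at ZT0, 107 to 164 CPM in 4 ZT12 hearts and 391 CPM in the doubted one. Its log2 fold change was 0.54 with and 0.12 without that library (adjusted p = 0.97 and 1). Nampt, of NAD synthesis, and Pik3r1, a PI3K subunit gene, were at 0.12 and 0.40 (adjusted p = 1 and 0.59), or 0.09 and 0.29 without it. Oga and Ogt, the genes of the enzymes that remove and add O-GlcNAc, had log2 fold changes of 0.16 and 0.01 between the times (adjusted p = 1 for both), and 0.44 and 0.03 without the library.

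**Figure D5:**
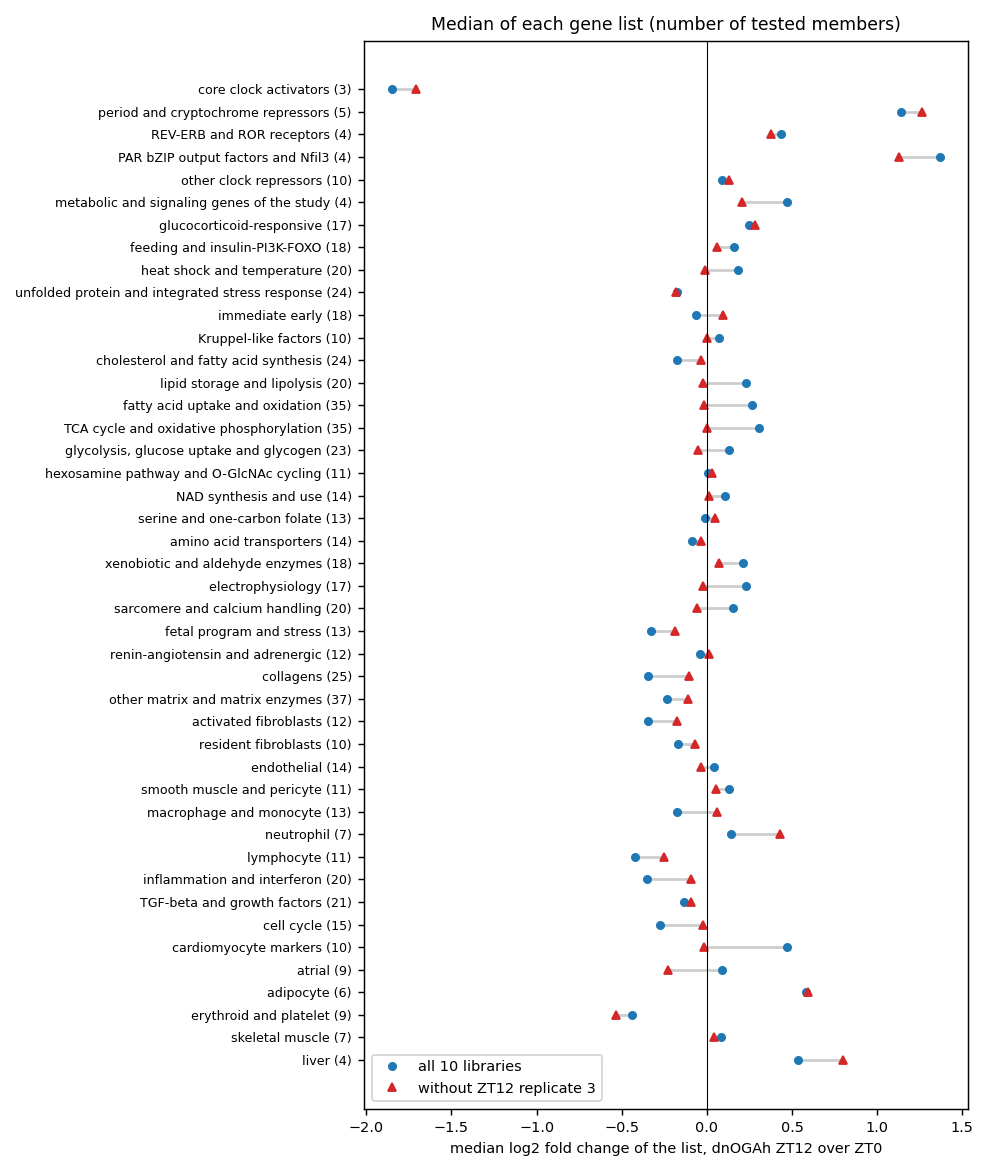
Median log2 fold change of ZT12 over ZT0 in dnOGAh hearts for each of 44 gene lists, with the number of tested members in brackets. Blue circles use all 10 libraries and red triangles leave out the library labelled ZT12 replicate 3. The cardiomyocyte markers move from 0.47 to -0.02 and the activators of the core clock from -1.85 to -1.71.

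Cldn5, Rcan1 and Gja1 did not pass and are given as examples of genes whose groups lay apart, Cldn5 only without the library labelled ZT12 replicate 3. They were picked by hand from several such genes, Foxo3 and Col5a3 among them. Groups apart were about as common over all genes as chance alone gives, so this is no evidence of a change. They come from the endothelial, stress and electrophysiology lists. Rcan1 was the 1 of 13 tested genes of its list with groups apart, and Gja1 the 1 of 17. Of the 14 endothelial genes 8 had positive log2 fold changes, and 6 without the library labelled ZT12 replicate 3. Over all genes tested 0.43% lay wholly higher and 0.447% wholly lower, or 0.751% and 0.673% without that library. Cldn5, a tight junction gene of endothelium, had 21.8 to 39.2 CPM at ZT0 and 10.1 to 19.1 CPM in 4 ZT12 hearts, and 31.3 CPM in the library labelled replicate 3. Without that library its groups did not overlap (log2 fold change -1.02, adjusted p = 0.24, against -0.70 and 0.83 with it). Rcan1, an inhibitor gene of calcineurin, had 286 to 321 CPM at ZT0 and 149 to 248 CPM at ZT12, also without overlap (log2 fold change -0.62, adjusted p = 0.13, and 0.87 without the library). Gja1, the gene of connexin 43, had 137 to 173 CPM at ZT0 and 102 to 124 CPM at ZT12, again without overlap (log2 fold change -0.47, adjusted p = 0.73, and 1 without the library).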

How the data were processed

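The authors deposited raw counts per gene in 1 table of 60 libraries, from polyA RNA of directional libraries. Per the labels' processing notes, the tools were HTSeq 2.0.2, STAR 2.7.10b and Trim Galore 0.6.7, the build was GRCm39, and the strand setting of the counting is not given in the sources used here. Of 53700 gene rows, 52093 were given a symbol from a table of GRCm38 gene names, and 5 summary rows were left out. Genes were kept by filterByExpr (minimum count of 10) over the 12 genotype and time groups, scaled by TMM and tested in edgeR 4.0.16 (R 4.3.3) with its quasi-likelihood test over all 60 libraries, with Benjamini-Hochberg adjustment over all genes tested and a threshold of 0.05. The fit was repeated without the library labelled dnOGAh ZT12 replicate 3. CPM are scaled counts per 1000000, and SE is the absolute log2 fold change over the root of F. Hearts were separate animals by the study's methods.

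For RNA-seq data the study's methods give a test of rhythms over 6 times and none between a pair of times, so the count test was used. The gene lists (44 lists, 644 genes, 629 tested, 2 not matched) and members were chosen with earlier results of these data known. Named genes are every clock list member, the called genes, up to 4 called or the 2 with the smallest p of other lists, and the smallest p for the difference between genotypes at a mean of at least 5 CPM. This rule gave 120 genes. Of these, 55 that passed the test in neither fit of the dnOGAh hearts, some with large fitted changes, are given by their lists' counts only, and these 55 were chosen by hand after their values and their behaviour under the alternatives had been seen, which departs from the rule. A further gene that met the rule is not reported here. Alternatives were DESeq2 1.42.0, its size factors, limma 3.58.1 voom with sample weights, other filters, subsets of libraries, leaving out each library and a replicate block. The test was also run on simulated counts that had the same spread for every gene and no outlying library. Such a run cannot show how the test behaves with the outlying libraries of these data. The highest correlation between any pair of the 10 libraries was 0.992, and no library was a copy of another.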

Additional observations from a re-analysis of the deposited data

Results flagged for a closer look

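In the ZT12 group the library labelled replicate 3 stood apart from the other 4 hearts in 7 of the tests of a single far value, in which the gap to the nearest heart is divided by the range of the 5 hearts (on log2 of CPM + 0.5, critical value 0.71). It was lowest for Arntl (0.879), Bhlhe40 (0.827), Bhlhe41 (0.718) and Plat (0.846) and highest for Rora (0.923), Csnk1e (0.869) and Usp2 (0.815). In the ZT0 group replicate 2 was lowest for Plat (0.748) and highest for ENSMUSG00000119895 (0.874) and for the share of counts taken by the 20 highest genes (0.742), at 39.5% against a lowest ZT0 value of 22.9%. Of 92 groups of 5 hearts tested, 10 passed the critical value, where chance gives about 1 in 20.

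The change of Arntl from ZT0 to ZT12 differed between genotypes by 1.97 on the log2 scale without the library labelled ZT12 replicate 3 (adjusted p = 0.017, edgeR). Over 18 settings of that fit the difference ran from 1.92 to 2.10, with adjusted p from 5.76e-04 to 0.073, and passed in 16. Starting from all libraries it ran from 1.66 to 2.05 over 21 settings and passed in 4. These were DESeq2 (adjusted p = 0.043), limma voom with sample weights (adjusted p = 0.0071) and settings that themselves left out ZT12 replicate 3. The latter left it out alone (adjusted p = 0.017, edgeR) or with ZT12 replicate 1 and ZT0 replicate 5 (2.05, adjusted p = 0.028, edgeR).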

How the results depend on the processing

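For the 21 genes called with all libraries, DESeq2 gave 41, limma voom with sample weights 103, the fit without the 2 mitochondria-rich ZT4 libraries 45, the dnOGAh libraries only 13, the 10 libraries only 5 and an adjusted p under 0.01 13. Leaving out 1 library at a time gave 14 to 33. Alternatives chosen after seeing the data, leaving out ZT12 replicate 3 with ZT0 replicate 2 or with ZT12 replicate 1 and ZT0 replicate 5, gave 11 and 10. Without the library labelled ZT12 replicate 3 (14 genes), voom gave 101, the fit without the ZT4 libraries 26 and leaving out another library 9 to 13. For CON (69 genes), the numbers were 107 in DESeq2, 293 in voom, 106 without the ZT4 libraries and 36 at an adjusted p under 0.01. For the difference between genotypes (0), they were 2 in DESeq2, 11 in voom, 1 with no filter, 1 without the ZT4 libraries, 1 at an adjusted p under 0.1, 0 to 1 when leaving out 1 library, and 0 and 1 for the added ones. Without the library labelled ZT12 replicate 3 (1), they were 2 in DESeq2, 10 in voom, 2 with no filter, 2 without the ZT4 libraries, 0 at an adjusted p under 0.01 and 0 to 2 when leaving out another library. The cause of these differences was not tested.

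With the replicate number as a block, 20 genes were called with all libraries (12 higher, 8 lower) and 15 without the library labelled ZT12 replicate 3. Same-numbered ZT0 and ZT12 hearts deviated with correlations from -0.153 to 0.0847, and no ZT0 heart correlated best with its own number. For ZT0 replicates 1, 2 and 4 the best match was the library labelled ZT12 replicate 3. Low correlations cannot show whether the numbers mark a batch, and the main fit used no block.

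No gene that passed changed sign under any alternative run. Log2 fold changes of genes that did not pass did, and the values here are those of the 64 genes described by value. Of the 55 that met the naming rule and are given by counts only, 22 changed sign in 63 of 2241 alternative values, none of them past the threshold. Bhlhe40 was 0.055 in voom and -0.26 to 0.13 when libraries were left out, and Csnk1e -0.0055 to 0.26. Nampt was -0.0035 in voom, or -0.0078 without the library labelled ZT12 replicate 3. Ogt was -0.0034 with DESeq2 size factors, -0.0011 in DESeq2, -0.0013 with a mean of at least 1 CPM and -0.039 to 0.093 when libraries were left out, and Oga (Mgea5) was -0.11 to 0.47. Cycs was -0.013 in voom and -0.084 to 0.32 when libraries were left out. Without the library labelled ZT12 replicate 3, leaving out others gave Bhlhe40 -0.058 to 0.17, Dgat2 -0.015 to 0.23, Ogt -0.012 to 0.093 and Cycs -0.13 to 0.013.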
